A study of Homo sapiens with 15 samples.

Results

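The comparison described here set cells that received both mifepristone and dexamethasone against cells that received neither, to measure what remained of the glucocorticoid response under a receptor antagonist. It rests on 6 of the 15 arrays of the study: the 3 arrays of A549 cells given mifepristone for 48 hours and dexamethasone for 6 hours, and the 3 arrays of non-treated A549 cells, both chosen by their titles. A549 is an established epithelial line from a human lung adenocarcinoma. All groups had the same medium, F12K with 10% fetal bovine serum that had been charcoal treated, a step that strips steroid hormones. Biotin-labelled total RNA was measured on Affymetrix arrays. The 3 arrays of cells given dexamethasone alone for 6 hours are used here for side values, and the remaining 6 arrays, of cells given match or mismatch polyamide with dexamethasone, enter only through the normalization, the filter and the shared estimate of the spread. The labels state no doses, no vehicle and no harvest time for the non-treated cells. The labels do not say that replicate arrays came from separate cultures, so p-values measure only how these arrays spread, and that spread may be technical. No arm with mifepristone and no dexamethasone was analysed here, so an effect of mifepristone itself and dexamethasone action that escaped the antagonist cannot be told apart.

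Dexamethasone is a synthetic glucocorticoid that binds the glucocorticoid receptor, a ligand-activated transcription factor encoded by NR3C1, which then binds response elements in DNA and raises or lowers transcription of nearby genes. Mifepristone competes with it for the ligand pocket. It is known as an antagonist of the glucocorticoid and progesterone receptors and, in some cell types and at some genes, as a partial agonist. In lung epithelial cells the receptor is known for inducing feedback inhibitors of inflammatory signalling, genes of lipid and fuel handling and metallothioneins, and for lowering cytokine and immediate early transcripts.

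The line's labelled identity was checked on its markers. Of 16 markers of A549 cells and airway epithelium, 13 lay above a normalized signal of 12.01, the level of the 40th percentile, on all 6 arrays, among them the keratins KRT8 and KRT18 and the aldehyde dehydrogenase ALDH1A1, while the surfactant genes SFTPB and SFTPC and the lung factor NKX2-1 did not. For other cell types the counts were 2 of 9 for leukocytes, 3 of 10 for fibroblasts and 2 of 8 for endothelium. Those above the level were ITGAM and CD79A, COL1A1, THY1 and ACTA2, and PECAM1 and EGFL7, while PTPRC, COL1A2 and CDH5 were among the rest. COL1A1 and ACTA2, with means of 124 and 128 in non-treated cells, were brighter than MUC1 of the epithelial list at 47.0. The summed signal of the epithelial list was 43430 to 44056 under mifepristone plus dexamethasone and 43571 to 45207 in non-treated cells, and the leukocyte sums were 146 to 169 and 124 to 166. The fibroblast sums were 318 to 381 and 353 to 365, and the endothelial sums 150 to 165 and 143 to 191, so the ranges overlapped for all 4 lists. As deposited, the mifepristone arrays were brighter, with trimmed mean signals of 119 to 147 against 87.2 to 101 on the non-treated arrays, while the mean log2 signal of 18 spike-in probe sets was 9.81 to 10.16 and 9.81 to 10.08. Arrays were quantile normalized, which sets each gene against the rest of its own array. A change in RNA per cell and a change in the share of cells expressing a gene cannot be told apart in such bulk RNA.

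Few transcripts differed. Of 39744 probe sets tested, 48 were higher under mifepristone plus dexamethasone (0.121% of those tested) and 18 were lower (0.0453%) at an adjusted p under 0.05, and 2649 had an unadjusted p under 0.05. Of those 66, 11 were at least 2-fold higher and 3 at least 2-fold lower, and on all 66 the 3 arrays of one group lay apart from the 3 of the other. Passing the test on the same arrays favours such separation, so here and for single genes below it is no further evidence. The log2 difference, here always that of (signal + 16), which understates the change of dim probe sets, had a median of 0.67 over the 48 higher probe sets, with a range of 0.31 to 2.05. Over the 18 lower probe sets the median was -0.57, with a range of -0.41 to -1.20. Taking 1 probe set per gene, 28 of 16358 genes were higher (0.171%) and 12 were lower (0.0734%).

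**Figure D1:**
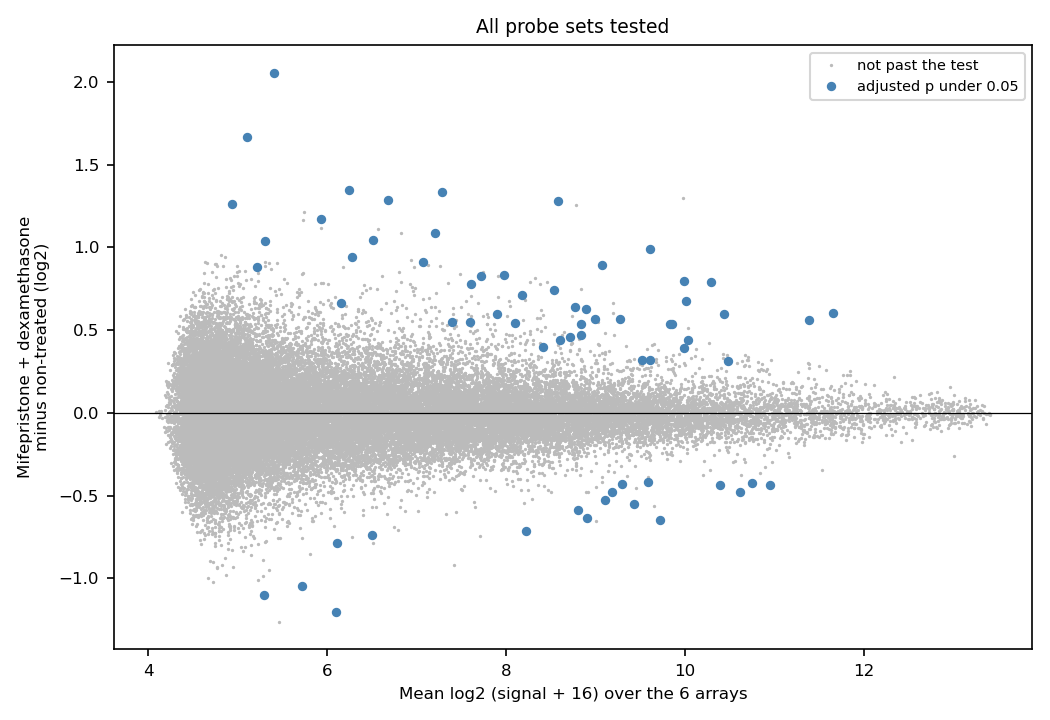
Log2 difference between mifepristone plus dexamethasone and non-treated cells (vertical axis) against the mean log2 of (signal + 16) over the 6 arrays (horizontal axis), 1 point for each of the 39744 probe sets tested. The 66 probe sets past the test are drawn large, 48 of them above 0 and 18 below, and most points lie close to 0.

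The split between rises and falls depended on how arrays were scaled. With signals as deposited, 5780 probe sets were higher and 12 lower, and the median of all probe sets shifted by 0.36. With spike-in scaling the counts were 2157 and 6, with a median shift of 0.36. Rises thus made up 99.8% and 99.7% of the calls, against 72.7% after quantile normalization. All 48 higher probe sets stayed past the test under both scalings, and 3 of the 18 lower ones did. The upward shift itself favours higher calls over lower ones, so these counts do not show that rises were firmer than falls. With median scaling 29 of the 48 and 14 of the 18 stayed, and with trimmed-mean scaling 44 and 18. Taking 1 probe set per gene, 15.8% of genes were higher with signals as deposited and 5.06% with spike-in scaling, and these shares stand beside the list counts given under those scalings below. Changes below are relative to the rest of the array. Leaving out any 1 of the 6 arrays gave 31 to 44 higher and 8 to 14 lower probe sets; the counts of higher and lower were 44 and 14 without non-treated array 1, 32 and 11 without non-treated array 2, 36 and 8 without non-treated array 3, 31 and 11 without mifepristone array 1, 40 and 13 without mifepristone array 2, and 38 and 11 without mifepristone array 3.

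The feedback and anti-inflammatory genes that glucocorticoids induce were led by FKBP5, whose product is a co-chaperone that lowers the receptor's affinity for its ligand. Its signals were 213, 229 and 251 on the non-treated arrays, 594, 559.6 and 599 under mifepristone plus dexamethasone and 2659, 2711 and 2828 under dexamethasone alone. The 3 groups did not overlap, and the middle group lay nearer to the non-treated level. The log2 difference from non-treated cells was 1.28 (SE 0.07, n = 3 arrays per group, adjusted p = 5.07e-09, limma). All 3 probe sets of FKBP5 were higher, by 1.09 to 2.05. On the signal scale after quantile normalization 14.1% ± 0.68 (SE) of the dexamethasone increment was left, a quantity called the residual below: the mean under both compounds minus the non-treated mean, as a percentage of the mean under dexamethasone alone minus the non-treated mean. It uses the same non-treated arrays in both terms, so it describes levels and is not a test.

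DUSP1, a phosphatase that inactivates MAP kinases, gave 2159, 2159 and 2254 in non-treated cells, 3179, 3383 and 3169.8 with both compounds and 5875, 5706 and 5792 with dexamethasone alone, again without overlap. The difference was 0.56 (SE 0.05, adjusted p = 1.73e-06) with a residual of 29.3% ± 2.07. Of its 3 probe sets 2 were higher, and with median scaling the adjusted p rose to 0.0876. ZFP36, which binds and destabilizes cytokine mRNAs, gave 210.0, 201 and 221 in non-treated cells and 428, 299.7 and 351 with both compounds, and ERRFI1, an inhibitor of EGF receptor signalling, gave 764, 781 and 726 in the first and 1118, 1121 and 1073 in the second. Both pairs of groups were apart, with differences of 0.71 (adjusted p = 0.000811) and 0.53 (adjusted p = 2.35e-05) and residuals of 18.9% and 21.1%. TSC22D3, which encodes the glucocorticoid-induced leucine zipper protein, had the lowest residual of the 5: its signals were 133, 119 and 118 in non-treated cells, 196, 218 and 154 with both compounds and 1105, 1053 and 1145 with dexamethasone alone. It differed by 0.55 (SE 0.09, adjusted p = 0.0106), a residual of 6.76% ± 1.99. That call rested on 1 of its 3 probe sets, which ranged from -0.21 to 0.55, and it ended without non-treated array 2 or 3 or mifepristone array 1 or 2 (adjusted p 0.0783 to 0.0932, difference 0.45 to 0.68). In all, 5 of the 17 feedback genes tested rose and none fell, against 0.171% and 0.0734% of all genes. The count of higher genes was 9 both with signals as deposited and with spike-in scaling, against 15.8% and 5.06% of all genes. How each list was counted under the other scalings was chosen after the data were seen.

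**Figure D2:**
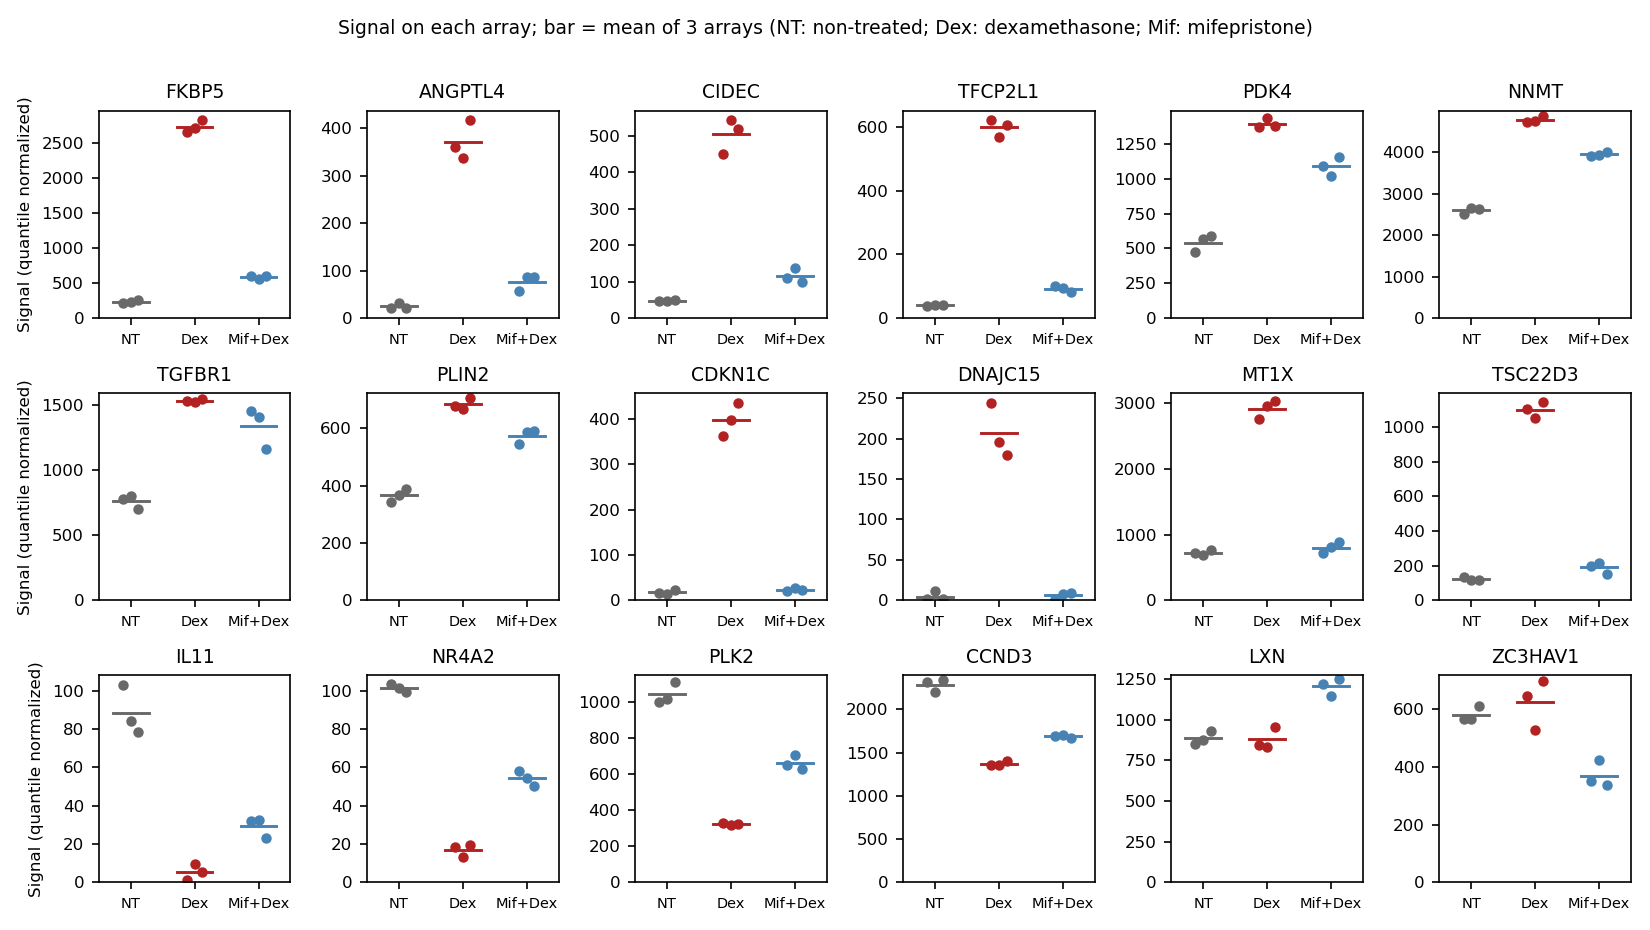
Quantile-normalized signal (vertical axis, from 0) of 18 genes on each of 3 arrays (points) in non-treated cells, with dexamethasone (Dex) and with mifepristone plus dexamethasone (Mif+Dex); bars are the means. FKBP5 and CIDEC lie low between the other groups, PDK4 and TGFBR1 lie near the dexamethasone level, CDKN1C and MT1X lie near the non-treated level, and LXN and ZC3HAV1 differ from both.

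Promoters of the genes past the test, higher or lower, were read for AGAACA, the core hexamer of the receptor's response element, on either strand. RefSeq promoter windows (build GRCh38.p14) of 300 bases, 250 before and 50 after a start, were found for 31 of the 40 genes past the test. The hexamer was in 7 of their 55 windows (12.7%) and, for the genes that rose, in 7 of 43 (16.3%), against 14.8% of all 35116 windows. The full palindrome, the hexamer and its inverted copy with 3 bases of any kind between them, was in none of the 55 and in 1 of all windows. The windows of FKBP5 at chr6:35728534-35728833, PDK4 at chr7:95596467-95596766 and CIDEC at chr3:9878763-9879062, all on the minus strand, are shown 5′ to 3′. They were picked because they hold a match, and where a gene had several windows the first with a match was taken. ANGPTL4, also among the most raised genes, had no match. The windows shown therefore do not tell how often raised genes carry the hexamer. Capitals mark the hexamer, and where it reads tgttct it lies on the opposite strand. A match describes letters and is no binding site.
FKBP5: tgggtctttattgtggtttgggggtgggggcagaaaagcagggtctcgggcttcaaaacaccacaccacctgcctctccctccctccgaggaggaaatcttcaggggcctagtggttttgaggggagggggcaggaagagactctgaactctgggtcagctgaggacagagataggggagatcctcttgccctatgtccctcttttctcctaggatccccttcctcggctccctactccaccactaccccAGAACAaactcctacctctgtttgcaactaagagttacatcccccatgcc
PDK4: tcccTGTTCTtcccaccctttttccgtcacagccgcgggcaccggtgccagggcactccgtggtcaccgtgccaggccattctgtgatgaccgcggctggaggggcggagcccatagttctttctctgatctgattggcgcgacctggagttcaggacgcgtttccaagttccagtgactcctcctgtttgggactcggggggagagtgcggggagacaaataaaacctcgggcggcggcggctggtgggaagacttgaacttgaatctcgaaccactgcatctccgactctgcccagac
CIDEC: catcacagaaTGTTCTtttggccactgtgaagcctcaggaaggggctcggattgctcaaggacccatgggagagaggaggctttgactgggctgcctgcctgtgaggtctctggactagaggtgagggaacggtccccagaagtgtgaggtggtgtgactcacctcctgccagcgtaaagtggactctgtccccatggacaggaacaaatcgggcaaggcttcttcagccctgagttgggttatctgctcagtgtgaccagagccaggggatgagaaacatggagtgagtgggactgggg

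Genes of lipid and fuel metabolism had the most members past the test of any list, with 7 of 19 tested higher and none lower, against 0.171% and 0.0734% of all genes. The higher genes numbered 12 with signals as deposited and 11 with spike-in scaling, against 15.8% and 5.06% of all genes. ANGPTL4, a secreted inhibitor of lipoprotein lipase, gave 20.7, 31.6 and 22.1 in non-treated cells, 55.9, 86.9 and 86.5 with both compounds and 361, 337 and 417 with dexamethasone alone. CIDEC, a lipid droplet protein, gave 46.2, 46.6 and 49.5 in non-treated cells, 111, 138 and 99.3 with both compounds and 449.7, 544 and 519.9 with dexamethasone. Neither gene's groups overlapped. The differences from non-treated cells were 1.17 (SE 0.16, adjusted p = 0.000811) and 1.05 (SE 0.13, adjusted p = 0.000168), and the residuals were 14.9% ± 3.24 and 14.99% ± 2.68. ACSL1, which activates long-chain fatty acids, rose by 0.64 (adjusted p = 0.00435) with a residual of 17.6%. Its call ended when only the 6 arrays were fitted (adjusted p = 0.0657) and without the variance trend (adjusted p = 0.111). IGFBP1, a secreted binder of insulin-like growth factors, went from 149, 139 and 144 to 224, 213 and 217, a rise of 0.55 (adjusted p = 0.00665) with a residual of 15.4%; the call ended without non-treated array 2 or mifepristone array 1 (adjusted p 0.0544 and 0.0582). IRS2, an adaptor of the insulin receptor, rose by 0.32 (adjusted p = 0.0399), and that call ended without any single non-treated array or without mifepristone array 1 or 3 (adjusted p 0.0519 to 0.284, difference 0.24 to 0.37) and with median scaling, where the difference was 0.25. The other IRS2 probe set read -0.17 and did not pass, and the mean of both gave 0.075 (adjusted p = 0.926).

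PDK4 and PLIN2 of the same list stayed much nearer to the dexamethasone level. PDK4, a kinase that turns off the pyruvate dehydrogenase complex and so spares glucose, gave 472, 567 and 587 in non-treated cells, 1089.9, 1022 and 1153 with both compounds and 1374, 1439 and 1376 with dexamethasone alone. Its groups did not overlap, and the level with both compounds lay closer to that with dexamethasone. The difference from non-treated cells was 0.99 (SE 0.08, adjusted p = 6.71e-07), that from dexamethasone was -0.36 (adjusted p = 0.00753), and the residual was 63.96% ± 4.94. PLIN2, which coats lipid droplets, gave 342, 368 and 388 in non-treated cells, 545, 588 and 590.4 with both compounds and 679.8, 667 and 705 with dexamethasone, also without overlap. It rose by 0.63 (SE 0.07, adjusted p = 6.23e-05) and lay -0.25 from dexamethasone (95% interval -0.39 to -0.10, adjusted p = 0.0577), with a residual of 65.6% ± 5.37. Of the 2 PLIN2 probe sets the other read -0.37 and did not pass, and the mean of both gave 0.13 (adjusted p = 0.911).

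Other transcripts also stayed near the dexamethasone level. TGFBR1, the type I receptor for TGF-beta, gave 774, 802 and 702 in non-treated cells, 1449.9, 1401 and 1156 with both compounds and 1529, 1516 and 1546 with dexamethasone alone. The 3 groups did not overlap. It rose by 0.80 (SE 0.07, adjusted p = 4.59e-06) and differed from dexamethasone by -0.20 (95% interval -0.35 to -0.05, adjusted p = 0.174), which does not show that the levels were alike. Its residual was 74.8% ± 11.9; its 3 probe sets ran from -0.04 to 1.21, 1 of them past the test, and their mean gave 0.66 (adjusted p = 0.101). TGFBR1 was the 1 gene of 17 in the TGF-beta and matrix list to rise, and none fell, against 0.171% and 0.0734% of all genes. Of the 17, 3 were higher both with signals as deposited and with spike-in scaling, against 15.8% and 5.06% of all genes.

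NNMT, which methylates nicotinamide, gave 2511, 2659 and 2632 in non-treated cells, 3915, 3925 and 4013 with both compounds and 4726, 4745 and 4876 with dexamethasone. These groups did not overlap; the rise was 0.60 (SE 0.05, adjusted p = 6.71e-07), the distance from dexamethasone -0.27 (adjusted p = 0.000651) and the residual 61.9% ± 2.11. With median scaling its adjusted p was 0.0771. AKAP12, a scaffold for protein kinase A, went from 892, 739.6 and 784 to 1389, 1258 and 1230.3, a rise of 0.67 (SE 0.07, adjusted p = 5.52e-05) with a residual of 62.1% ± 9.07, seen on 2 of its 5 probe sets. CREB3L2, a membrane-bound transcription factor, rose by 0.44 (adjusted p = 0.0416, residual 76.6%), and TRIM25, a ubiquitin ligase, rose by 0.40 (adjusted p = 0.0247, residual 146%). The CREB3L2 call ended without any 1 of the 6 arrays (adjusted p 0.0925 to 0.249, difference 0.40 to 0.47). The TRIM25 call ended without any 1 of them other than non-treated array 1 (adjusted p 0.0681 to 0.204, difference 0.35 to 0.44) and with median scaling (adjusted p = 0.196). The other TRIM25 probe set read -0.25 and did not pass, and the mean of both gave 0.0725 (adjusted p = 0.95). NNMT, CREB3L2 and TRIM25 are on no list and were named after their values were seen.

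Residuals of every size depended on the scaling. Over the 27 higher genes that dexamethasone also changed, residuals ran from 6.76% to 146% after quantile normalization. They ran from 14.8% to 353% with signals as deposited and from 15.1% to 488% with spike-in scaling. TSC22D3 was lowest and TRIM25 highest each time. These genes had to pass the test against non-treated cells, which favours a large residual where the dexamethasone increment was small. The log2 difference with dexamethasone alone was 1.35 for PDK4, 1.00 for TGFBR1 and 0.875 for NNMT, against 3.48 for FKBP5. The tally therefore does not describe all genes that dexamethasone raised. For PDK4 the residual was 59.9% with median scaling, 62.6% with trimmed-mean scaling, 109% with signals as deposited and 119% with spike-in scaling. For TGFBR1 the same 4 values were 67.6%, 71.1%, 136% and 148%, and for NNMT 41.5%, 45.2%, 103% and 115%. For FKBP5 they were 13.4%, 14.0%, 22.7% and 23.9%, so FKBP5 lay below PDK4, TGFBR1 and NNMT under every scaling run. Some other low residuals moved by more than that of FKBP5. With signals as deposited and with spike-in scaling that of ERRFI1 was 44.6% and 47.2%, and that of THBD 43.4% and 45.7%. That of STOM was 28.8% and 30.6%, and that of SLC45A4 71.7% and 76.5%. Those of TSC22D3 (14.8% and 15.1%) and TFCP2L1 (16.4% and 17.1%) moved by less than that of FKBP5. These scalings of the residual were chosen after the data were seen.

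**Figure D3:**
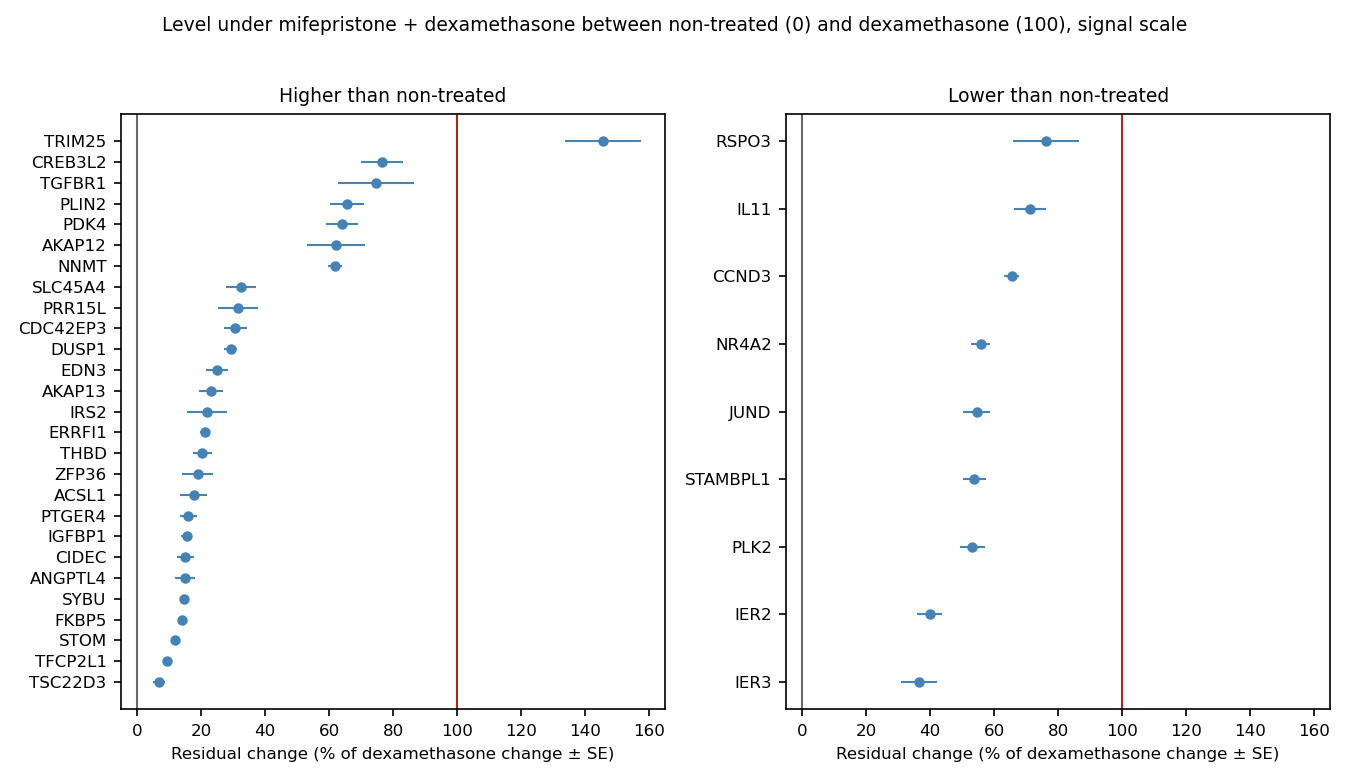
Residual change in percent (horizontal axis, ± SE) for genes that differed from non-treated cells both with mifepristone plus dexamethasone and with dexamethasone, where 0 is the non-treated and 100 the dexamethasone level on the signal scale. Drawn after quantile normalization, 20 of the 27 higher genes lie under 35%. Of the others, 6 lie between 60% and 80%, and TRIM25 lies above 100. With signals as deposited 9 were under 35%, 10 from 35% to 60% and 7 above 100. As drawn, the lower genes lie between 36.6% and 76.2%. With signals as deposited the lower genes ran from -4.00% for IER3 to 56.1% for IL11. Genes enter only by passing the test, which favours large residuals where the dexamethasone increment was small.

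Of 17 tested transcription factors known to be induced, 7 were higher with signals as deposited and 6 with spike-in scaling. The shares over all genes were then 15.8% and 5.06%. After quantile normalization 1 of the 17 rose and none fell, against 0.171% and 0.0734% of all genes. The 1 was TFCP2L1, a grainyhead-family factor of epithelia, with 36.9, 42.2 and 41.7 in non-treated cells, 99.5, 95.3 and 81.7 with both compounds and 621, 567 and 607 with dexamethasone alone. Its groups did not overlap, the rise was 0.94 (SE 0.11, adjusted p = 0.000163) and the residual 9.29% ± 1.04, and 1 of its 3 probe sets passed, with all 3 between 0.48 and 0.94. KLF9, a factor often used to read receptor activity, was dim, with 0.2, 4.2 and 1.4 in non-treated cells and 10.5, 3.1 and 6.2 with both compounds. These groups overlapped, and the difference was 0.33 (95% interval -0.06 to 0.71, adjusted p = 0.808). With dexamethasone alone KLF9 gave 24.8, 29.4 and 25.3, and its residual was 19.0% ± 9.56. ZBTB16, another such factor, was dim and scattered, at 23.3, 17.6 and 17.5 in non-treated cells and 0.7, 23.3 and 12.6 with both compounds. The difference was -0.41 (adjusted p = 0.868). With dexamethasone alone ZBTB16 read -0.09 (adjusted p = 0.94, limma), so it cannot show how much of a response was left.

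Further rises fell outside the glucocorticoid lists. CDC42EP3, an effector of the small GTPase CDC42, gave 394, 392 and 358 in non-treated cells, 781, 728 and 658 with both compounds and 1419.8, 1569.6 and 1481 with dexamethasone, and rose by 0.89 (SE 0.09, adjusted p = 2.47e-05) on 3 of its 4 probe sets. SYBU, a linker of vesicles to kinesin, gave 132, 128 and 138 in non-treated cells, 246, 232 and 240.3 with both compounds and 844, 874 and 875 with dexamethasone, with a rise of 0.78 (SE 0.08, adjusted p = 1.51e-05). In both genes the 3 groups were apart, with residuals of 30.7% and 14.6%. THBD, the endothelial anticoagulant receptor thrombomodulin, rose by 0.59 (adjusted p = 0.000858, residual 20.4%), and STOM, a membrane scaffold protein, by 0.39 (adjusted p = 0.000163, residual 11.7%; adjusted p = 0.184 with median scaling). PRR15L, a proline-rich protein, was dim in non-treated cells at 10.6, 9.1 and 15.2 and gave 41.4, 31.8 and 50.3 with both compounds, a rise of 1.04 (adjusted p = 0.00385, residual 31.5%). It missed the test when only the 6 arrays were fitted (adjusted p = 0.0591).

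Another 4 rises were less firm. EDN3, an endothelin peptide, rose by 0.88 (adjusted p = 0.00809) on 1 of 2 probe sets, and the call ended without non-treated array 2 or 3 or mifepristone array 2 (adjusted p 0.0542 to 0.0709, difference 0.80 to 0.97). AKAP13, a scaffold and activator of the GTPase RHOA, rose by 0.83 (adjusted p = 0.0112) on 1 of 8 probe sets. Its call ended without non-treated array 2 or 3 or mifepristone array 1 or 3 (adjusted p 0.0697 to 0.0884, difference 0.79 to 0.90). PTGER4, a receptor for prostaglandin E2, rose by 0.67 (adjusted p = 0.0325) and missed the test without any 1 of the arrays other than non-treated array 3 (adjusted p 0.0662 to 0.203, difference 0.61 to 0.78). SLC45A4, a solute carrier, rose by 0.54 (adjusted p = 0.0131) and missed it without any 1 of the arrays other than mifepristone array 3 (adjusted p 0.0542 to 0.104, difference 0.50 to 0.60). Their residuals ran from 15.97% for PTGER4 to 32.5% for SLC45A4, with EDN3 at 25% and AKAP13 at 23.0%. SLC45A4, THBD and STOM were named after their values were seen.

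**Figure D4:**
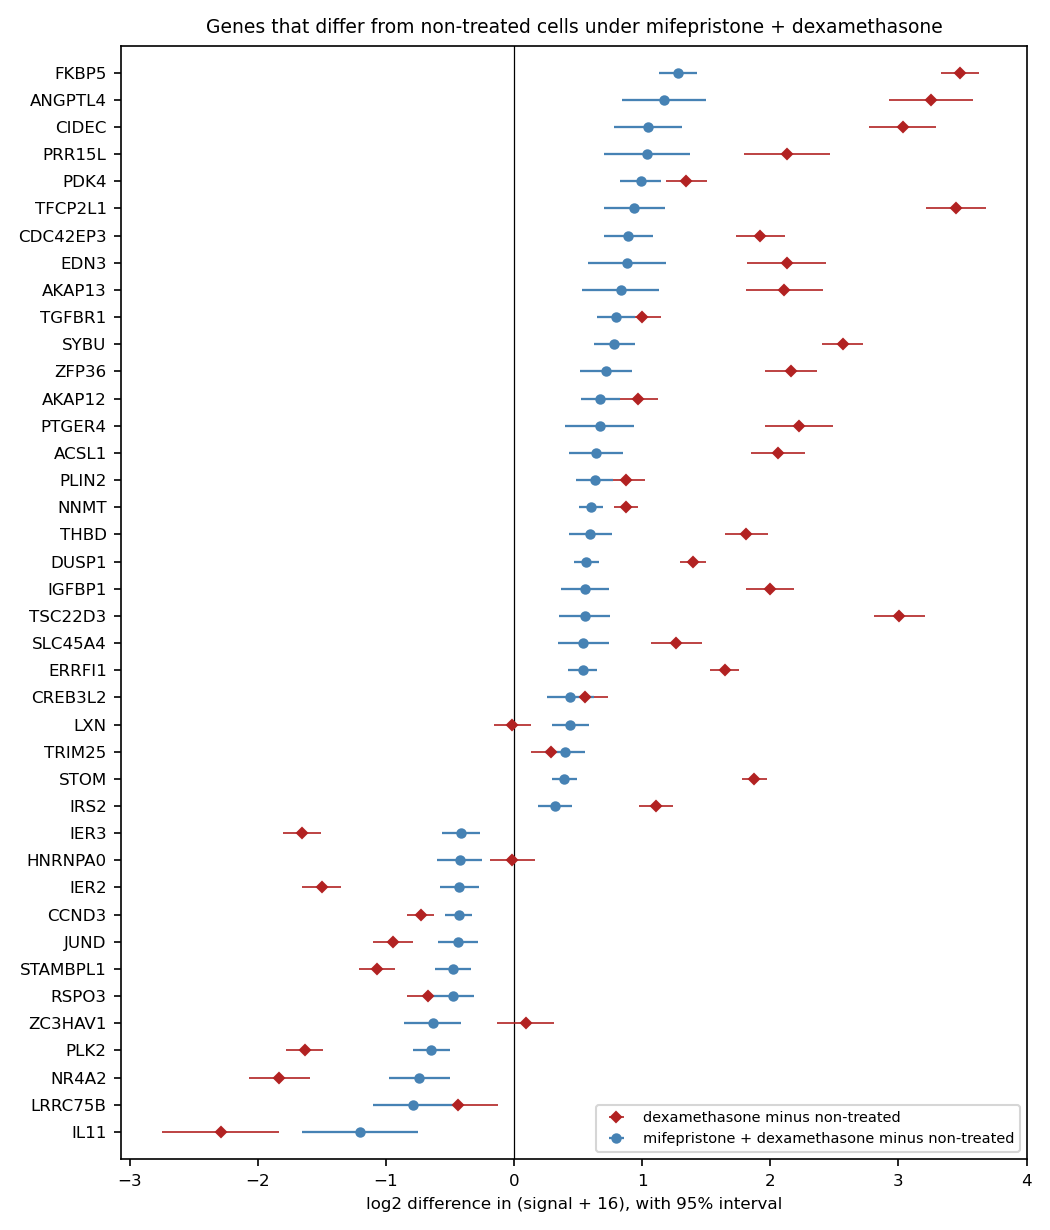
Log2 difference in (signal + 16) from non-treated cells (horizontal axis, 95% interval) for the 40 genes past the test, with mifepristone plus dexamethasone (circles) and with dexamethasone alone (diamonds). FKBP5 at the top reads 1.28 against 3.48 and IL11 at the bottom -1.20 against -2.29; both differences use the same 3 non-treated arrays.

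Some of the strongest dexamethasone responses left no rise that passed the test. CDKN1C, the cell cycle inhibitor p57, gave 15.9, 14.6 and 23.0 in non-treated cells, 21.0, 26.0 and 23.4 with both compounds and 362, 397 and 436 with dexamethasone alone. The first and second groups overlapped, and the difference was 0.23 (95% interval -0.03 to 0.49, adjusted p = 0.798), against 3.62 for dexamethasone; the residual was 1.47% ± 0.78. On its other 3 probe sets the differences were 0.09 to 0.58, none past the test, with residuals of 1.32% to 11.2%. On the highest of them the arrays were apart, at 3.9, 14.2 and 9.4 in non-treated cells and 22.1, 21.8 and 19.1 with both compounds (unadjusted p = 0.00863, adjusted p = 0.544, limma). DNAJC15, a mitochondrial co-chaperone, gave 1, 11.8 and 1 in non-treated cells, 1.1, 8.3 and 9.4 with both compounds and 244, 196 and 179.7 with dexamethasone. RRAD, a small GTPase that restrains calcium channels, gave 10.3, 9.6 and 4.1 in non-treated cells, 17.1, 1.4 and 8.3 with both compounds and 181, 182 and 212 with dexamethasone. Their differences from non-treated cells were 0.13 (95% interval -0.30 to 0.56) and 0.02 (95% interval -0.36 to 0.39), with dexamethasone at 3.47 and 3.12. DNAJC15 and RRAD were picked after their values were seen. In the list of growth, stress and survival genes that holds all of them, 0 of 17 passed limma's test and 4 had an unadjusted p under 0.05, all 4 higher, with FGD4 at 0.43 (adjusted p = 0.374), MCL1, an inhibitor of apoptosis, at 0.32 (adjusted p = 0.111), CAVIN2 at 0.32 and DDIT4, an inhibitor of mTOR signalling, at 0.19 (adjusted p = 0.289). These 4 passed under other scalings: with signals as deposited FGD4 read 0.84 (adjusted p = 0.0174), MCL1 0.77 (adjusted p = 0.00544), CAVIN2 0.77 (adjusted p = 0.0197) and DDIT4 0.61 (adjusted p = 0.0122). In all, 8 of the 17 were higher with signals as deposited and 7 with spike-in scaling, against 15.8% and 5.06% of all genes. After quantile normalization 0.171% of all genes were higher, and 2649 of 39744 probe sets had an unadjusted p under 0.05.

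None of the 10 tested genes of the metallothionein list, metal-binding proteins and their regulators, passed limma's test, and 1 had an unadjusted p under 0.05. Over all genes 0.171% were higher and 0.0734% lower, and 2649 of 39744 probe sets had an unadjusted p under 0.05. MT1X gave 712, 694 and 772 in non-treated cells, 724, 804 and 879.7 with both compounds and 2752, 2959 and 3035 with dexamethasone alone. The first 2 groups overlapped, with a difference of 0.14 (95% interval -0.02 to 0.30, adjusted p = 0.798). MT2A read 0.02 (95% interval -0.24 to 0.28), MT1E 0.16 and MT1F 0.35. The deposited signals, not rescaled, had 6 of the 10 higher, MT1X by 0.58 (adjusted p = 0.0177), MT1F by 0.80 (adjusted p = 0.0214) and MT1E by 0.61 (adjusted p = 0.0408) among them, and with spike-in scaling 2 were, MT1X (adjusted p = 0.0387) and MT1F (adjusted p = 0.0318). The shares of all genes higher under those scalings were 15.8% and 5.06%. With dexamethasone alone 5 of the 10 rose, MT1X by 1.98 and MT2A by 1.64. Near-identical metallothionein sequences can share probes. Of the ion transport genes 0 of 10 passed, and 2 had an unadjusted p under 0.05. SGK1, a kinase that raises sodium uptake, gave 315, 321 and 370.5 in non-treated cells, 249, 263 and 342 with both compounds and 642, 663 and 700.3 with dexamethasone. Its first 2 groups overlapped, and the difference was -0.24 (95% interval -0.44 to -0.03, adjusted p = 0.684). SCNN1A, a subunit of the epithelial sodium channel, read 0.66 (95% interval 0.30 to 1.03, adjusted p = 0.26), with 1 dim non-treated array among 49.1, 48.6 and 17.9. It passed with signals as deposited, at 1.08 (adjusted p = 0.0033), and with spike-in scaling, at 1.07 (adjusted p = 0.00568, limma). Under those scalings 5 and 1 of the 10 ion transport genes were higher, against 15.8% and 5.06% of all genes.

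Over the 5 glucocorticoid lists together, 13 of 80 tested genes were higher than in non-treated cells and 0 were lower, against 0.171% higher among all genes, and the median difference was 0.16 against -0.02 over all genes. With dexamethasone alone, 49 of the 80 were higher and 2 lower, with a median of 0.74 (all genes: 3.19% higher and 3.6% lower). Between both compounds and dexamethasone alone, 2 of the 80 were higher and 42 lower (all genes: 2.53% and 2.76%). These 3 comparisons share arrays, and the lists were written with earlier results of the same data known, so the counts are not independent evidence. The count of 13 was 10 to 12 on leaving out any 1 array, 41 with signals as deposited and 34 with spike-in scaling. Of all genes 15.8% were higher with signals as deposited and 5.06% with spike-in scaling. PER1, a clock gene among the fixed names, has no value here because its probe sets carry more than 1 gene symbol.

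**Figure D5:**
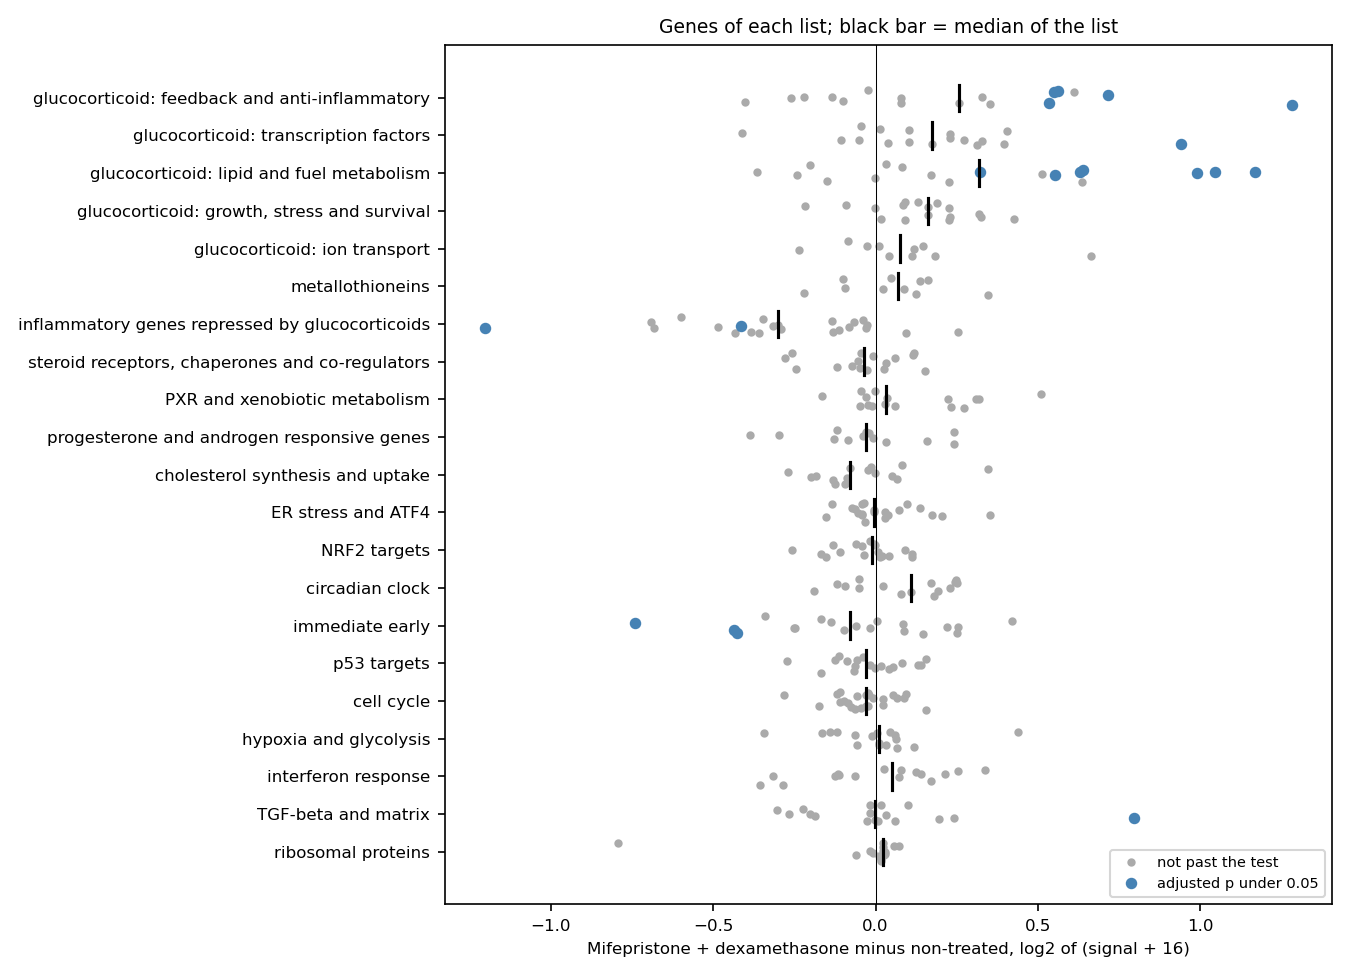
Log2 difference in (signal + 16) between mifepristone plus dexamethasone and non-treated cells (horizontal axis) for each tested gene of 21 lists (rows), large blue points past the test and black bars at the list medians. Points past the test lie to the right in the feedback, transcription factor, lipid and TGF-beta lists and to the left in the inflammatory and immediate early lists.

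Falls were fewer, and of the 12 lower genes IL11 alone stayed past the test both with signals as deposited and with spike-in scaling. IL11, a cytokine of the interleukin-6 family, gave 103, 84.4 and 78.2 in non-treated cells, 32.2, 32.6 and 23.3 with both compounds and 1.5, 9.6 and 5.5 with dexamethasone alone. The groups did not overlap; the difference was -1.20 (SE 0.22, adjusted p = 0.0186) with a residual of 71.3% ± 4.92, and 1 of its 2 probe sets passed. The call ended without any 1 of the 6 arrays (adjusted p 0.059 to 0.138, difference -1.27 to -1.10). IER3, a stress-induced regulator of cell survival, gave 928, 804 and 893 in non-treated cells and 684, 604 and 669 with both compounds, a difference of -0.41 (adjusted p = 0.0112, residual 36.6%). Without non-treated array 1 or 3 or mifepristone array 2 its adjusted p was 0.0849 to 0.103, and the difference was -0.47 to -0.36 over the 6 omissions. IL11 and IER3 were the 2 of 23 tested inflammatory genes to fall, none rose, against 0.0734% lower among all genes, and the list's median was -0.30. IL11 alone of the list fell with signals as deposited and with spike-in scaling, and the medians were 0.08 and 0.07. Over all genes the medians were then 0.37 and 0.36, and 0.0245% and 0.0122% were lower. Of the rest, CXCL1, a neutrophil chemokine, read -0.68 (adjusted p = 0.0881), CCL2, a monocyte chemokine, -0.69 (adjusted p = 0.239), and CXCL8 -0.03 (adjusted p = 0.991); CXCL1 and CCL2 were picked after their values were seen.

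Of the immediate early genes, whose transcripts rise within minutes of a stimulus, 3 of 20 fell and none rose, against 0.0734% lower and 0.171% higher among all genes. None fell and 4 rose with signals as deposited, and none fell and 3 rose with spike-in scaling. Of all genes 15.8% and 5.06% were higher under those scalings. NR4A2, an orphan nuclear receptor, gave 104, 102 and 99.3 in non-treated cells, 58.0, 54.6 and 50.4 with both compounds and 18.6, 13.3 and 19.3 with dexamethasone. The groups did not overlap, and the difference was -0.74 (SE 0.11, adjusted p = 0.00375), a residual of 55.8% ± 2.96. JUND, an AP-1 subunit, fell by 0.44 (adjusted p = 0.0106) on 1 of 4 probe sets, and IER2, a nuclear regulator, by 0.43 (adjusted p = 0.00916). The JUND call ended without non-treated array 2 or 3 or mifepristone array 2 or 3 (adjusted p 0.0528 to 0.0768, difference -0.46 to -0.41). The IER2 call ended without non-treated array 1 or 3 or mifepristone array 1 (adjusted p 0.075 to 0.082, difference -0.48 to -0.40). With signals as deposited the differences of JUND, IER2 and IER3 were 0.0096, 0.0201 and 0.0382, of the other sign, and that of NR4A2 was -0.33 (adjusted p = 0.189). The residual of NR4A2 was then 28.5%.

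PLK2, a stress-responsive kinase, gave 1003, 1021 and 1111 in non-treated cells, 652, 706 and 628 with both compounds and 329.8, 319 and 327 with dexamethasone. CCND3, a cyclin of the G1 phase, gave 2313, 2200.3 and 2345 in non-treated cells, 1687, 1709 and 1669.6 with both compounds and 1357, 1360.2 and 1400.2 with dexamethasone. In both genes the 3 groups were apart; the differences were -0.65 (SE 0.07, adjusted p = 3.78e-05) and -0.43 (SE 0.05, adjusted p = 0.000113), with residuals of 53.2% and 65.4%. STAMBPL1, a deubiquitinase, fell by 0.48 (adjusted p = 0.00143) on 1 of 3 probe sets, and RSPO3, a secreted enhancer of Wnt signalling, by 0.48 (adjusted p = 0.00665). The RSPO3 call ended without non-treated array 1 or 3 or mifepristone array 1 (adjusted p 0.0567 to 0.0643, difference -0.53 to -0.44). With signals as deposited PLK2 read -0.19 (adjusted p = 0.375), CCND3 -0.02, STAMBPL1 -0.03 and RSPO3 -0.04, none past the test. The residuals of PLK2 and CCND3 were then 18.3% and 3.08%. Residuals of falling genes were not set against those of rising ones, because a share on the signal scale weighs falls and rises differently.

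A few transcripts differed from non-treated cells while the difference with dexamethasone alone did not pass the test. LXN, the carboxypeptidase inhibitor latexin, gave 850.2, 877 and 927 in non-treated cells, 844, 831 and 957 with dexamethasone and 1218, 1144 and 1250.4 with both compounds. The first 2 groups overlapped and the last lay above both, by 0.44 over non-treated cells (SE 0.07, adjusted p = 0.00435) and by 0.45 over dexamethasone (adjusted p = 0.000252). With median scaling the first of these had an adjusted p of 0.278. ZC3HAV1, an antiviral protein that binds CG-rich RNA, gave 565, 568 and 610.0 in non-treated cells, 647, 527 and 699 with dexamethasone and 349.8, 423 and 338 with both compounds, so that the arrays with both compounds lay below all others. The differences were -0.63 (SE 0.11, adjusted p = 0.00868) and, against dexamethasone, -0.73 (adjusted p = 0.000169), and 2 of its 3 probe sets passed. The first ended without non-treated array 3 or mifepristone array 1 or 3 (adjusted p 0.0681 to 0.0801, difference -0.73 to -0.57). It read -0.18 (adjusted p = 0.421) with signals as deposited and with spike-in scaling -0.19 (adjusted p = 0.383).

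HNRNPA0, an RNA-binding protein, read -0.42 (adjusted p = 0.0399) and -0.41 against dexamethasone (adjusted p = 0.00491). Its first call ended without any 1 of the 6 arrays (adjusted p 0.0523 to 0.275, difference -0.47 to -0.36), and the difference was 0.0053 with signals as deposited. LRRC75B, a leucine-rich repeat protein, gave 66.6, 82.2 and 75.9 in non-treated cells, 31.6, 37.5 and 40.8 with both compounds and 52.7, 53.5 and 46.9 with dexamethasone. Its 3 groups were apart, and it read -0.79 (adjusted p = 0.026), with dexamethasone at -0.44 (adjusted p = 0.118). The call ended without any 1 array other than non-treated array 1 (adjusted p 0.0549 to 0.211, difference -0.86 to -0.71), and with signals as deposited it read -0.43 (adjusted p = 0.111). LXN and HNRNPA0 were named after their values were seen. Whether such differences come from mifepristone was not tested, since the added compound and the longer treatment went together.

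The receptor's own transcript NR3C1 gave 1349.6, 1332 and 1289.6 in non-treated cells, 1388, 1486 and 1276 with both compounds and 1137, 935 and 1068 with dexamethasone alone. The first 2 groups overlapped, with a difference of 0.06 (95% interval -0.10 to 0.22, adjusted p = 0.946). The dexamethasone arrays lay below both and differed from non-treated cells by -0.34 (adjusted p = 0.0091). With both compounds NR3C1 read 0.50 with signals as deposited (adjusted p = 0.0434, limma) and 0.49 with spike-in scaling (adjusted p = 0.0605). The medians over all genes were then 0.37 and 0.36. Of 16 steroid receptor, chaperone and co-regulator genes 0 passed limma's test, and 0 had an unadjusted p under 0.05. Of 13 genes known to respond to progesterone or androgen 0 passed, with 2 at an unadjusted p under 0.05. Mifepristone is also known to activate the xenobiotic receptor PXR, and 0 of 16 genes of xenobiotic metabolism passed, with 1 at an unadjusted p under 0.05. CYP3A4, its classic target, was at 20.2, 8.2 and 7.1 in non-treated cells and 17.2, 8.1 and 7 with both compounds, a difference of -0.04 (95% interval -0.61 to 0.52), and ABCB1, a drug efflux pump, read 0.31 (95% interval -0.11 to 0.73). These dim signals give wide intervals. With signals as deposited 4, 2 and 3 members of these 3 lists were higher, and with spike-in scaling 1 of each. Over all genes 15.8% and 5.06% were higher under those scalings. The remaining lists also had 0 past limma's test after quantile normalization. Counts of 0 in lists this short are near the shares over all genes, 0.171% higher and 0.0734% lower. Over all 39744 probe sets tested, 2649 had an unadjusted p under 0.05, which stands beside the list counts here. The counts at an unadjusted p under 0.05 were 1 of 15 genes of cholesterol synthesis, 2 of 21 of ER stress, 3 of 18 NRF2 targets, 1 of 15 of the circadian clock, 1 of 18 p53 targets, 2 of 24 of the cell cycle, 2 of 17 of hypoxia and glycolysis, 0 of 16 of the interferon response and 1 of 15 ribosomal proteins. In these lists the medians lay between -0.08 and 0.11. With signals as deposited 0% to 33.3% of their members were higher and with spike-in scaling 0% to 9.52%, none lower under either, with the ER stress list highest both times; XBP1, a transcription factor of that list, then read 0.81 with signals as deposited (adjusted p = 0.00802).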

How the data were processed

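Each array file as deposited held 1 linear intensity for every probe set, computed by MAS5 per the submitters' processing notes, with no version or scaling target named there. Of 54675 probe sets, 41097 carried 1 gene symbol in GEO's platform annotation, 1801 several and 11777 none. The 62 control probe sets were left out of the test. Signals were quantile normalized, 16 was added and log2 taken. Probe sets above the 40th percentile of their array on at least 3 of 15 arrays were fitted with limma 3.58.1 in R 4.3.3 (1 coefficient for each of 5 groups of 3, eBayes with a variance trend, Benjamini-Hochberg adjustment over all 39744 probe sets, threshold 0.05). The fit was also run on simulated arrays with normal noise and no added difference in brightness between groups. That run therefore does not bear on the choice of scaling. A gene was represented by 1 probe set with its symbol alone, not an _x_at set first, then the brightest. Named genes were the 15 most raised and 10 most lowered genes past the test with separated arrays, fixed receptor genes, and list members past the test or, for a list with none, up to 4 with the smallest p. The number of arrays limits precision. Genes, lists and tests were chosen with earlier results of these data known.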

Additional observations from a re-analysis of the deposited data

How the results depend on the processing

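Of the 40 genes past the test, 10 kept their call under all 19 alternatives: FKBP5, ANGPTL4, CIDEC, PDK4, TFCP2L1, CDC42EP3, SYBU, AKAP12, ERRFI1 and THBD; 20 kept it under all 4 other scalings. Of the 40, 22 missed the test without the variance trend (AKAP13, ZFP36, PTGER4, ACSL1, IL11, LRRC75B, ZC3HAV1, RSPO3, STAMBPL1, JUND, CCND3, IER2, TSC22D3, IGFBP1, IRS2, IER3, SLC45A4, CREB3L2, LXN, TRIM25, STOM and HNRNPA0; adjusted p 0.0517 to 0.407), 9 with only the 6 arrays fitted (PRR15L, EDN3, PTGER4, ACSL1, TSC22D3, IRS2, IER3, CREB3L2 and TRIM25) and 17 when a gene's probe sets were averaged (EDN3, AKAP13, TGFBR1, IL11, LRRC75B, NR4A2, ZC3HAV1, STAMBPL1, JUND, TSC22D3, IRS2, PLIN2, NNMT, CREB3L2, TRIM25, STOM and HNRNPA0). Higher probe sets numbered 48, but 5780 with signals as deposited, 2157 with spike-in scaling, 29 with median scaling and 23 without the variance trend, and 31 to 44 on leaving out 1 array. Lower probe sets numbered 18, but 6 with spike-in scaling and 3 without the trend, and 8 to 14 on leaving out 1 array. Of 80 glucocorticoid-induced genes 13 were higher, but 41 as deposited, 34 with spike-in scaling and 8 without the trend. Over all genes 0.171% were higher, but 15.8% as deposited and 5.06% with spike-in scaling. Differences changed sign as deposited for JUND (0.0096), IER2 (0.0201), IER3 (0.0382) and HNRNPA0 (0.0053), with residuals of -1.75% for JUND, -2.39% for IER2 and -4.00% for IER3, and with spike-in scaling for IER2 (0.0089, residual -0.52%) and IER3 (0.027, residual -2.62%). Why was not tested. The fit did not pair same-numbered arrays of the 2 groups, and the labels do not say whether they belong together. Correlations of their deviations were -0.03, 0.06 and 0.01, which cannot settle that. With a replicate block 56 probe sets were higher, 19 were lower and 13 listed genes were higher. Other alternatives run were trimmed-mean scaling, added constants of 1 and 64, no filter, a filter at the 60th percentile, fits on 6 or 9 arrays and the mean of a gene's probe sets. Probe sets of low signal had wide intervals, so small differences there were not detectable.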

Other observations

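A further 10 gene symbols passed the test only on a probe set that did not represent their gene. RASSF9, a protein with a Ras-association domain, read 1.35 on that probe set (adjusted p = 0.00561) with signals of 31.2, 36.5 and 27.2 in non-treated cells and 119.5, 75.8 and 125 with both compounds, while its representing probe set read 0.42 (adjusted p = 0.684). HIPK2, a nuclear kinase, read 0.91 (adjusted p = 0.0365) against 0.36, and ZNF281, a zinc finger factor, 0.54 (adjusted p = 0.0022) against 0.36 (adjusted p = 0.0627). GDF15, a stress-induced cytokine, read -0.72 (adjusted p = 0.00385) against -0.08 and, with dexamethasone alone, -2.37. PPP1R10, TOP2A, EGLN1 and HPGD were higher and SLC11A1 and CLCN7 lower on 1 probe set each, with representing values of -0.13, 0.16, 0.32, 0.35, -0.44 and -0.12, none past the test. The cause of these disagreements was not tested.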
